A study of Mus musculus with 6 samples.

Results

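The chemokines and chemokine receptors described here are 32 genes, taken by mouse symbol and matched to the Ensembl identifiers of RNA-seq tables of the mouse cervical spinal cord that hold 54532 genes. They comprise 13 CC ligands, 10 CXC ligands, the CX3C ligand Cx3cl1, 3 CC receptors, 3 CXC receptors and 2 atypical receptors. Of the 32 genes, 22 were detected, meaning that their mean over the 6 libraries was at least 0.1 FPKM (fragments per kilobase of exon, scaled for library depth). The cords came from 6 C57BL/6 mice. In the 3 mice with allergic contact dermatitis (ACD), the contact allergen squaric acid dibutylester (SADBE; 20 µl at 1%) was given on the abdominal skin daily for 3 days and, 5 days later, on the nape for another 3 days. The 3 control mice received acetone, the vehicle, on the nape, and the labels do not make clear whether they had SADBE on the abdomen. The neck skin is supplied by cervical segments, and the cord itself received no allergen.

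Chemokines are small secreted proteins that draw cells along a gradient by binding receptors coupled to G proteins. They are classed by the spacing of their first cysteines: adjacent in CC ligands, separated by 1 residue in CXC ligands and by 3 in the CX3C ligand. Inflammatory chemokines are induced by cytokines, interferons and microbial products and recruit leukocytes, whereas homeostatic chemokines are made steadily and place cells in tissues. In the central nervous system, neurons make Cx3cl1, whose receptor Cx3cr1 is carried by microglia, and Cxcl12 acts through Cxcr4 and is taken up by Ackr3. Atypical receptors bind chemokines without G protein signalling and remove them.

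The spacing that defines the classes can be read in the coding sequences, which are shown here for the detected ligands that the results below turn on. Each stretch holds the codons of the first cysteine motif in capitals and 4 codons on either side, 5′ to 3′ on the coding strand, from GENCODE M21 transcripts (GRCm38). All 24 ligands held the motif of their class.
Cxcl14: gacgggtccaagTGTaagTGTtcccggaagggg
Cxcl12: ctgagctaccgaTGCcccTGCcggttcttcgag
Cxcl10: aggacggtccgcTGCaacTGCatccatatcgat
Cxcl1: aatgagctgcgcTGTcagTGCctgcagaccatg
Cxcl16: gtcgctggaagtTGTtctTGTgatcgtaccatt
Ccl27a: tccagcactagcTGCTGTactcagctctat
Ccl25: gcctttgaagacTGCTGCctgggttaccag
Ccl5: gacaccactcccTGCTGCtttgcctacctc
Cx3cl1: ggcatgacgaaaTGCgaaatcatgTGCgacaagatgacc
In the first 5, all CXC ligands, 1 codon separates the capitals, in the 3 CC ligands the capitals touch, and in Cx3cl1 there are 3 codons between them.

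The libraries had a depth of 17346309 to 20245564 reads in ACD and 16916595 to 18583984 in controls, as recovered from the steps between low FPKM values. For a transcript of 2 kb, 1 read therefore stands for 0.0247 to 0.0296 FPKM. Where no read was counted, the upper limit of 3 reads corresponds to 0.0741 to 0.0887 FPKM by library, which covers counting error only. Of the 13 genes that mark the position along the neuraxis, 9 were detected, all of them Hox genes expressed at cervical levels, and the lumbar genes Hoxc10 and Hoxd10 and the forebrain gene Emx1 were at or near 0. Across all genes, 21369 had a mean of at least 0.1 FPKM and were tested with limma on log2(FPKM + 0.1). Of these, 386 were higher and 541 lower in ACD at an adjusted p under 0.05. The split was 208 higher and 704 lower after TPM scaling, and 909 higher and 492 lower once a per-library trend with exon length and GC was taken out. The median fold change over all genes (log2) was -0.01 as deposited and -0.10 after TPM scaling. Fold changes below are ACD minus control on that log2 scale, on which folds of low genes come out too small, and adjusted p-values are from limma over all 21369 genes.

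Detection was counted by class. CC ligands were detected in 11 of 13 cases, CXC ligands in 6 of 10, CC receptors in 2 of 3, CXC receptors in 1 of 3 and atypical receptors in 1 of 2, and Cx3cl1 was detected. That is 68.75% of the 32 genes, beside 39.19% of all genes in the tables. Apart from Cxcl11, the 32 genes are annotated as protein-coding, whereas the tables also hold pseudogenes and non-coding genes. The shares are therefore not a like comparison. Only 8 had a mean of at least 1 FPKM: Cxcl14, Cx3cl1, Ccl27a, Cxcl12, Ackr3, Cxcl16, Cxcr4 and Ccl12. Cxcl14 and Cx3cl1 together made up 77.4% of the summed FPKM of the 32 genes, and the most abundant detected gene lay 301.1-fold above the least abundant. The threshold fell in a gap: the lowest genes inside it were Cxcl1 at a mean of 0.171 and Ccl22 at 0.193 FPKM, and the highest outside it were Cxcl9 at 0.0744 and Ackr2 at 0.0664 FPKM. For 13 of the 22 detected genes the mean was under 20 reads.

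**Figure D1:**
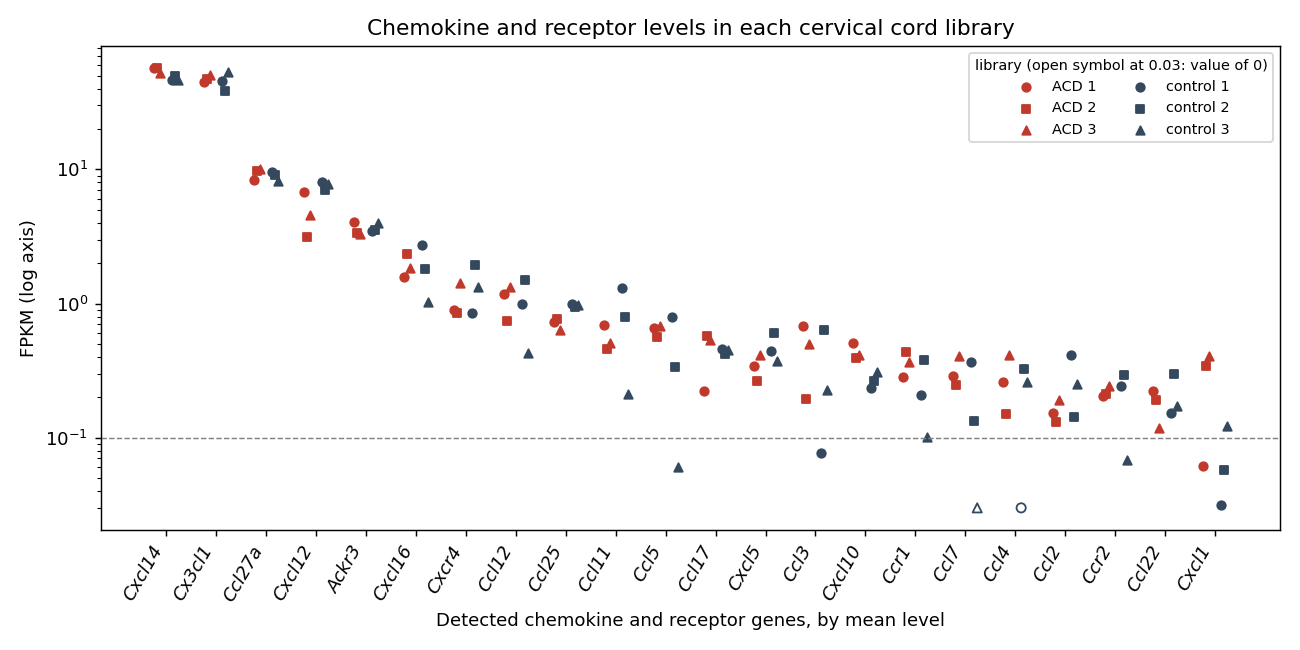
FPKM on a log axis of the 22 detected genes in each library, ordered by mean level, with ACD libraries in red to the left of control libraries in blue; the dashed line is the detection limit of 0.1 FPKM and open symbols stand for a value of 0. Cxcl14 and Cx3cl1 stand above all others, and the libraries of a gene spread further apart towards the low end, where a value rests on few reads.

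No chemokine or receptor gene passed the test between ACD and control: 0 of the 22 detected genes were higher and 0 lower at an adjusted p under 0.05, where 4.34% of all tested genes passed (1.81% higher, 2.53% lower). The count was also 0 with voom on the recovered reads, by which 7.96% of all genes passed, and under each of the other 15 alternatives tried. At an unadjusted p under 0.05 there were 4, Cxcl14, Cxcl10, Cxcl12 and Ccl25, or 18.18% of the detected genes against 22.3% of all genes tested. In the same 4 genes the ACD and control libraries did not overlap, which is 18.18% beside 28.6% of all genes. On 22 genes, neither share was read as differing from that of all genes. Cxcl14 and Cxcl10 were on the higher side (13.1% of all genes were apart in that direction) and Cxcl12 and Ccl25 on the lower side (15.5% of all genes). The fold change was above 0 for 13 and below 0 for 9 of the 22 genes, and their median was 0.09, beside -0.01 over all genes. That median was -0.003 after TPM scaling and -0.03 without control 3. A p that misses the threshold does not show that levels were equal, and the intervals below give the sizes that the data allow.

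**Figure D2:**
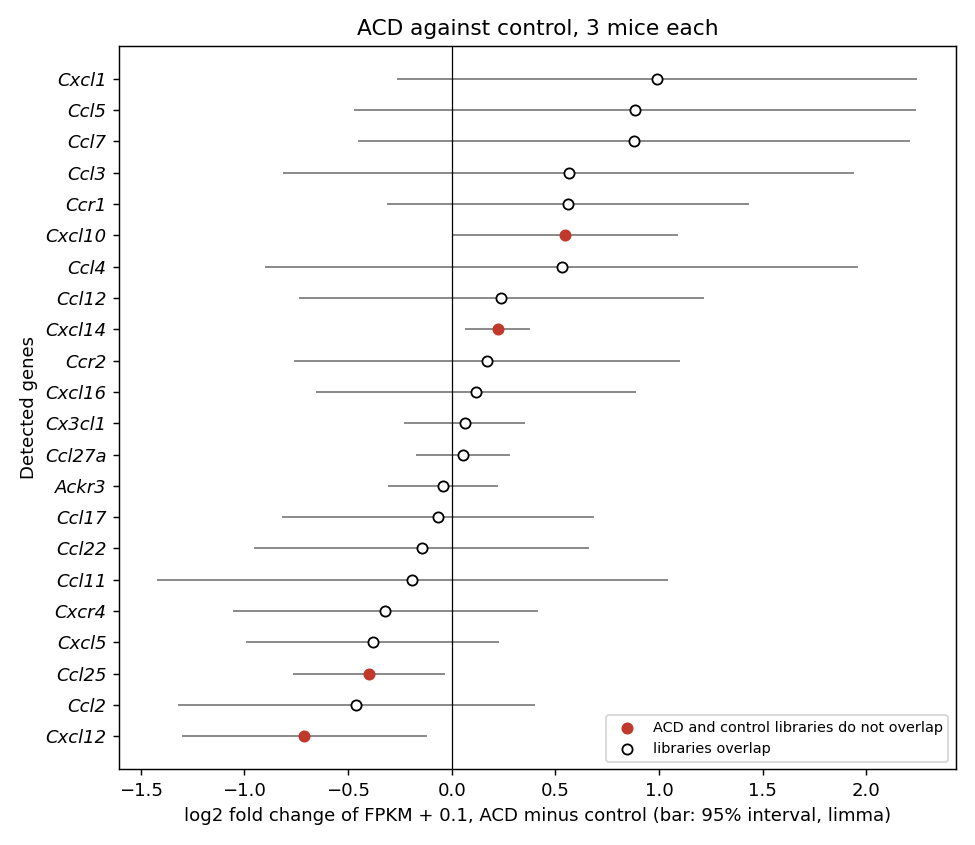
Log2 fold change of FPKM + 0.1, ACD minus control, for the 22 detected genes, with 95% intervals from limma (3 mice a group); filled symbols mark the 4 genes whose ACD and control libraries do not overlap. Only the intervals of these 4 lie clear of 0, and that of Cxcl1, at a fold change of 0.99, runs from -0.26 to 2.25.

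Among the homeostatic ligands, Cxcl14, a chemokine made by epithelia and by subsets of neurons, was the most abundant gene of the family. It lies on chromosome 13 at 56288643 to 56296551 (GRCm38, minus strand). It measured 56.6, 57.0 and 52.4 FPKM in ACD 1 to 3, against 46.0, 50.01 and 46.3 FPKM in controls 1 to 3. Every ACD library was above every control library, and each value rested on 1421 to 2110 reads. The means were 55.3 ± 2.57 FPKM in ACD and 47.4 ± 2.23 in controls (SD, n = 3 each). The fold change was 0.22 (SE 0.067, 95% interval 0.06 to 0.38) with an adjusted p of 0.113, and 0.0944 to 0.319 over the alternatives. After TPM scaling the fold change was 0.125 (adjusted p = 0.254 with limma).

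Cxcl12, also called SDF-1, the ligand of Cxcr4 and made by endothelial and meningeal cells, was the detected gene with the lowest fold change. Its gene spans 117168535 to 117181367 on chromosome 6. It measured 6.73, 3.12 and 4.58 FPKM in ACD 1 to 3, against 7.997, 6.98 and 7.76 FPKM in controls 1 to 3. All 3 ACD libraries lay below the controls, but ACD 1 was close to the lowest control and the ACD libraries were spread widely. The means were 4.81 ± 1.82 FPKM in ACD and 7.58 ± 0.531 in controls. The fold change was -0.71 (SE 0.25, 95% interval -1.30 to -0.12), with an adjusted p of 0.158 (0.0650 to 0.309 over the alternatives). It was -0.98 without ACD 1 and -0.44 without ACD 2.

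Endothelial and meningeal markers were looked at beside Cxcl12, since vessels and meninges make it. All 8 endothelial markers were detected, 2 with a fold change above 0 and 6 below. None passed with limma and 1 did with voom, by which 7.96% of all genes passed. Their summed level was 83.6 to 125.6 FPKM in ACD and 96.3 to 109 in controls. The sum was lowest in ACD 2, the library in which Cxcl12 was lowest as well. In ACD 1 (125.6 FPKM) and ACD 3 (111.2) it was above every control, while Cxcl12 in both was below every control. Slco1a4, a transporter of brain and cord endothelium, measured 11.1, 6.65 and 8.77 FPKM in ACD 1 to 3, against 13.1, 16.3 and 13.3 FPKM in controls (fold change -0.71, adjusted p = 0.0788 with limma and 0.0455 with voom). It was the marker with the smallest p, while the mean sum of the list was 106.8 FPKM in ACD and 102.7 in controls. Of the 9 markers of meningeal fibroblasts and mural cells, all detected, 6 had a fold change above 0 and 3 below. Their summed level was 89.8 to 95.15 FPKM in ACD and 65.7 to 91.3 in controls, and none passed with limma. The part of endothelium or meninges in the Cxcl12 values was not tested. In whole tissue such as this, fewer cells of a type and less RNA per cell cannot be told apart.

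Ccl25, which attracts thymocytes and gut T cells through Ccr9, lies on chromosome 8 at 4325210 to 4360020. It measured 0.728, 0.770 and 0.639 FPKM in ACD 1 to 3, against 0.985, 0.940 and 0.984 FPKM in controls 1 to 3, which is 87 to 116 reads in ACD and 124 to 130 in controls. The groups did not overlap and both were tight. Its fold change was -0.40 (SE 0.16, 95% interval -0.77 to -0.03), with an adjusted p of 0.191 (0.0951 to 0.398 over the alternatives). With the length and GC trend taken out, the fold change was -0.23 (adjusted p = 0.389 with limma). After TPM scaling it was -0.49 (adjusted p = 0.138 with limma). Of its exon bases, 2.74% overlap Elavl1 on the opposite strand, and the strand setting of the counts is not known.

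**Figure D3:**
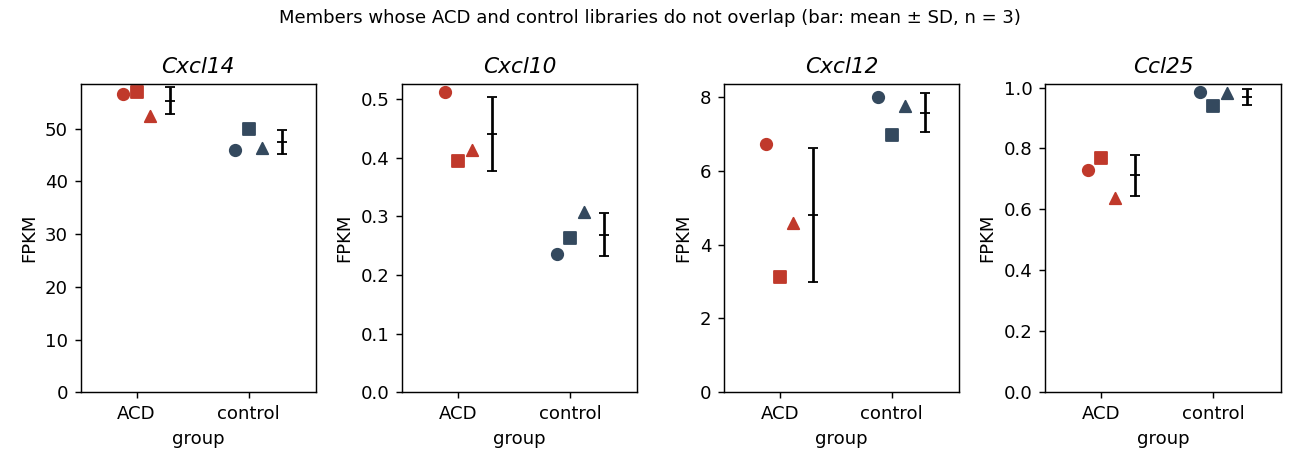
FPKM in each library for Cxcl14, Cxcl10, Cxcl12 and Ccl25, the detected genes whose groups do not overlap, with the 3 ACD libraries left of the 3 control libraries; bars are mean ± SD, n = 3, and symbols mark the replicate number. The axes start at 0, so the small shift of Cxcl14 (55.3 against 47.4 FPKM) can be set beside the wider one of Cxcl12 (4.81 against 7.58 FPKM).

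Ccl27a, a skin and epithelial chemokine whose receptor is Ccr10, was the third most abundant ligand. It measured 8.32, 9.66 and 9.98 FPKM in ACD 1 to 3, against 9.60, 9.06 and 8.22 FPKM in controls. The groups overlapped, and the interval of the fold change ran from -0.17 to 0.28 (adjusted p = 0.777). Its level is uncertain, because 45.0% of its 50-base words occur in 5 other genes, among them its copy Ccl27b. Its receptor Ccr10 measured 0.969, 0.859 and 0.602 FPKM in ACD 1 to 3 and 1.40, 0.312 and 0.935 FPKM in controls.

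The listed homeostatic ligands of lymphoid tissue, Ccl21a, Ccl19 and Cxcl13, were not detected. Ccl21a, a Ccr7 ligand, was at 0 in every library, which allows at most 0.204 FPKM, and 71.6% of its words are shared with near-identical copies, so its reads may have been split or dropped. Its copy Ccl21b, outside the 32 genes, was detected at 0.313 FPKM in ACD and 0.477 in controls, on 7 reads in ACD and 10 in controls (adjusted p = 0.488 with limma). Ccl19, the other Ccr7 ligand, had 1 read, in ACD 3, and shares 52.0% of its words. Cxcl13, which attracts B cells through Cxcr5, had 1 read in ACD 2 and 4 reads in control 1. Over the 7 homeostatic ligands listed, 4 were detected and none passed. The median fold change of those 4 was -0.17, beside -0.01 over all genes.

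The ligands with a transmembrane stalk were both detected. Cx3cl1, or fractalkine, is made by neurons and lies on chromosome 8 at 94772009 to 94782427. It measured 44.8, 47.0 and 50.6 FPKM in ACD 1 to 3, against 45.8, 38.1 and 53.5 FPKM in controls, so that the control libraries enclosed all the ACD ones. With 2785 to 3736 reads per library the fold change was 0.06 (95% interval -0.23 to 0.36, adjusted p = 0.802). Cxcl16, which binds Cxcr6 and also takes up oxidised lipids, measured 1.56, 2.35 and 1.83 FPKM in ACD 1 to 3 and 2.74, 1.82 and 1.03 FPKM in controls (fold change 0.12, adjusted p = 0.865). For Cxcl16, 18.3% of exon bases overlap Zmynd15 on the opposite strand.

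The inflammatory ligands were low. Of the 13 listed, 10 were detected, at means of 0.171 to 1.03 FPKM, which is 2.83 to 14.5 reads per library. None passed the test. Their fold change was above 0 for 7 and below 0 for 3, with a median of 0.54 (0.48 after TPM scaling) that came to 0.27 without control 3. Counting error alone is large at these read numbers.

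Cxcl10, the interferon-induced ligand of Cxcr3, was the only inflammatory ligand whose groups did not overlap. It lies on chromosome 5 at 92346638 to 92348889. It measured 0.512, 0.395 and 0.413 FPKM in ACD 1 to 3, against 0.236, 0.263 and 0.307 FPKM in controls 1 to 3, or 20, 18 and 17 reads in ACD and 9, 11 and 12 reads in controls. The means were 0.440 ± 0.0631 FPKM in ACD and 0.269 ± 0.0359 in controls. The fold change was 0.55 (SE 0.23, 95% interval 0.004 to 1.09), with an adjusted p of 0.222 (0.129 to 0.462 over the alternatives). Of its exon bases, 5.91% overlap Art3 on the opposite strand.

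Cxcl1, a neutrophil attractant that binds Cxcr2, had a fold change of 0.99 (SE 0.53, 95% interval -0.26 to 2.25, adjusted p = 0.323), which ran from 0.68 to 1.51 with 1 library left out. It was the highest of the 22 at the pseudocount of 0.1, and at 0.01 Ccl7 was higher (1.96, beside 1.61 for Cxcl1). It measured 0.0615, 0.342 and 0.408 FPKM in ACD 1 to 3, against 0.0315, 0.0574 and 0.123 FPKM in controls 1 to 3. These are 2, 13 and 14 reads in ACD and 1, 2 and 4 reads in controls. ACD 2 and ACD 3 lay above all controls, and ACD 1 lay among them.

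The promoters of these 2 ligands are shown because Cxcl10 was the inflammatory ligand with separate groups and Cxcl1 the one with the highest fold change at the pseudocount of 0.1. Each runs from 250 bases before to 50 after the gene's start in RefSeq (GRCm38.p6), 5′ to 3′ on the gene's strand, at chr5:92348840-92349139 for Cxcl10 (minus strand) and chr5:90890995-90891294 for Cxcl1 (plus strand). Capitals mark the interferon-stimulated response element, searched as GAAA, any 2 bases and GAAA again, and the NF-kB site, searched as GGGA, any 2 bases and TTCC, both on either strand.
Cxcl10: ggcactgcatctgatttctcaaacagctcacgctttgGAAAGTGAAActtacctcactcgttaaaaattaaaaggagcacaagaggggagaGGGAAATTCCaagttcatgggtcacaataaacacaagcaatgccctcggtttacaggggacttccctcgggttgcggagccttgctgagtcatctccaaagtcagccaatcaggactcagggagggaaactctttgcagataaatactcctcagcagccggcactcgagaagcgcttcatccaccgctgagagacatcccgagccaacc
Cxcl1: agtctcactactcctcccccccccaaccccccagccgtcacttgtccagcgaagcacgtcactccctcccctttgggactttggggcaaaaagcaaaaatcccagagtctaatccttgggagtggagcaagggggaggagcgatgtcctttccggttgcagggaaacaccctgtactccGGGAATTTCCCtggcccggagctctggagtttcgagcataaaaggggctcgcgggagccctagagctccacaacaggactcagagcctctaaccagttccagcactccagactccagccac
In Cxcl10 the response element began at position -213 and the only match of the NF-kB pattern searched at -159 from the start. Looser forms of the NF-kB site were not searched, so further sites may lie in the lower-case letters. In Cxcl1 the capitals are 2 overlapping matches of the NF-kB site, on opposite strands, from -71, and the response element was not found in this window. Of 22 members with a promoter in the table, 3 held the response element (Ccl19, Cxcl10 and Cxcl14) and 3 the NF-kB site (Cxcl1, Cxcl2 and Cxcl10). Over all 27025 promoters of the same length, 3.49% held the response element and 1.43% the NF-kB site. A match describes letters and not binding.

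Cxcl9 and Cxcl11, the other Cxcr3 ligands, lie beside Cxcl10 on chromosome 5, between 92321347 and 92365485, and were not detected. Cxcl9 had 6, 4 and 3 reads in ACD 1 to 3 and 9, 2 and 0 reads in controls, and Cxcl11 had 5, 3 and 0 reads in ACD and 4, 2 and 0 reads in controls. Cxcl11 is annotated as a polymorphic pseudogene in C57BL/6, and 41.7% of its exon bases overlap Gm2673. The remaining ligands of Cxcr2 share a stretch of chromosome 5 with Cxcl1. Cxcl5 had 11, 10 and 14 reads in ACD 1 to 3 and 14, 21 and 12 reads in controls (fold change -0.38, adjusted p = 0.439), and Cxcl2, not detected, had 2, 3 and 1 reads in ACD and 5, 0 and 0 reads in controls.

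The monocyte attractants Ccl2, Ccl7 and Ccl12, ligands of Ccr2, and the eosinophil attractant Ccl11 stand in a row on chromosome 11, from 82035571 to 82103400. Ccl12 was the most abundant, at 1.18, 0.736 and 1.32 FPKM in ACD 1 to 3 and 0.991, 1.503 and 0.430 FPKM in controls (fold change 0.24, adjusted p = 0.775). Ccl11 measured 0.693, 0.457 and 0.505 FPKM in ACD and 1.31, 0.796 and 0.213 FPKM in controls (fold change -0.19, adjusted p = 0.864). For both genes the controls covered a wider range than the ACD libraries, with control 3 lowest.

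Ccl2, the main monocyte attractant, had 3, 3 and 4 reads in ACD 1 to 3 and 8, 3 and 5 reads in controls (fold change -0.46, adjusted p = 0.515). Ccl7 had 4, 4 and 6 reads in ACD and 5, 2 and 0 reads in controls (fold change 0.88, adjusted p = 0.411). Neighbours in this row therefore had fold changes of either sign, and the libraries of each overlapped. Without control 3 the fold change of Ccl7 was 0.30.

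Ccl5, Ccl3 and Ccl4, which T cells, microglia and macrophages make, lie further along chromosome 11, from 83525778 to 83664683. Ccl5 measured 0.661, 0.566 and 0.683 FPKM in ACD 1 to 3, against 0.8005, 0.336 and 0.0601 FPKM in controls 1 to 3, or 11, 11 and 12 reads in ACD and 13, 6 and 1 reads in controls. The ACD libraries were close together, and the controls ran from above all of them to near 0. The fold change of 0.89 (95% interval -0.47 to 2.24, adjusted p = 0.415) was 0.23 without control 3. Ccl3 had 9, 3 and 7 reads in ACD and 1, 9 and 3 reads in controls (fold change 0.56, adjusted p = 0.613). Ccl4 had 3, 2 and 5 reads in ACD and 0, 4 and 3 reads in controls (fold change 0.53, adjusted p = 0.650).

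Ccl17 and Ccl22, ligands of Ccr4 that attract type 2 helper T cells and are prominent in allergic skin, flank Cx3cl1 on chromosome 8. Ccl17 measured 0.224, 0.577 and 0.532 FPKM in ACD 1 to 3 and 0.460, 0.419 and 0.449 FPKM in controls (fold change -0.07, 95% interval -0.82 to 0.69, adjusted p = 0.924). Ccl22 measured 0.223, 0.191 and 0.118 FPKM in ACD and 0.153, 0.301 and 0.174 FPKM in controls (fold change -0.15, 95% interval -0.96 to 0.66, adjusted p = 0.840). The libraries of both overlapped. Cx3cl1, between them, had a mean of 46.6 FPKM over the 6 libraries, against 0.193 for Ccl22 and 0.443 for Ccl17.

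Of the 8 receptors, 4 were detected and none passed. Ackr3, the scavenger of Cxcl12, was the most abundant, at 4.08, 3.36 and 3.28 FPKM in ACD 1 to 3 and 3.50, 3.52 and 4.01 FPKM in controls (fold change -0.04, 95% interval -0.31 to 0.22, adjusted p = 0.859). Cxcr4, the signalling receptor of Cxcl12, measured 0.893, 0.847 and 1.42 FPKM in ACD and 0.850, 1.93 and 1.34 FPKM in controls (fold change -0.32, 95% interval -1.06 to 0.42, adjusted p = 0.589). For both receptors the groups overlapped.

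Ccr1, a receptor of Ccl3 and Ccl5, had 14, 25 and 19 reads in ACD 1 to 3 and 10, 20 and 5 reads in controls (fold change 0.56, adjusted p = 0.423). Ccr2, the receptor of monocytes, had 24, 29 and 30 reads in ACD and 28, 37 and 8 reads in controls (fold change 0.17, adjusted p = 0.837). Control 3 was the lowest library for both. The receptors of lymphocytes were not detected: Ccr7 had 2, 0 and 1 reads in ACD and 0, 4 and 3 reads in controls, Cxcr3 had 0, 3 and 3 reads in ACD and 0 in every control, and Cxcr5 had 1 read, in control 3. Ackr2, which clears inflammatory CC ligands, had 7, 2 and 1 reads in ACD and 8, 4 and 0 reads in controls. Of 12 markers of T and NK cells, 5 were detected (Trac, Trbc2, Lck, Nkg7 and Gzma), with fold changes above 0, and none passed with limma. Gzma, a granzyme of cytotoxic cells, measured 0.745, 0.589 and 0.435 FPKM in ACD 1 to 3 and 0.0588, 0.267 and 0.0573 FPKM in controls, on 33 reads in ACD and 7 in controls (adjusted p = 0.0655 with limma and 0.0400 with voom). The markers below the detection limit included Cd3e, Cd3d, Cd3g, Cd4 and Cd8a, with group means of 0.0389 to 0.0941 FPKM in ACD and 0.00549 to 0.0767 in controls.

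Control 3 was the lowest of the 6 libraries for 8 of the 22 detected genes, or 36.36%, beside 18.2% of all genes tested. These were Ccl5, Ccl7, Ccl11, Ccl12, Ccl27a, Cxcl16, Ccr1 and Ccr2. The summed level of the 13 inflammatory ligands was 5.07, 3.66 and 5.34 FPKM in ACD 1 to 3 and 5.06, 4.86 and 2.25 FPKM in controls. Among marker lists, those of border macrophages, monocytes and neutrophils had their lowest sum in control 3 as well. So did those of T and NK cells (3.77 FPKM), meningeal fibroblasts and mural cells (65.7) and Schwann cells and sensory ganglion (121.1). The other lists were lowest in other libraries. Microglial markers were lowest in control 1 (94.4 FPKM, beside 100.2 in control 3), and dendritic cell markers were highest in control 3 (7.19 FPKM). The 7 border macrophage markers, all detected, summed to 10.1, 11.4 and 14.7 FPKM in ACD and 12.01, 6.63 and 5.36 FPKM in controls. The 7 monocyte markers, 6 detected, summed to 16.5, 15.1 and 19.9 FPKM in ACD and 15.9, 17.0 and 10.6 FPKM in controls. The 11 neutrophil markers, all detected, summed to 109.6, 99.1 and 129 FPKM in ACD and 28.7, 115 and 25.99 FPKM in controls. Among the border macrophage, monocyte and neutrophil markers none passed with limma. With voom, by which 7.96% of all genes passed, 2 border macrophage markers, 1 monocyte marker and 1 neutrophil marker did. Among them were Lyve1 (adjusted p = 0.0363 with voom), Ly6c2 (0.0498) and Mpo (0.0163), all higher in ACD. The part of these cell types in the ligand values was not tested. Markers of blood and nerve roots also stood apart between the groups: the 5 erythroid markers summed to 481 to 772 FPKM in ACD and 100.1 to 389 in controls, and the 7 markers of Schwann cells and sensory ganglion, 5 of them detected, summed to 245 to 366 FPKM in ACD and 121 to 188 in controls, with no gene past the test in either list.

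**Figure D4:**
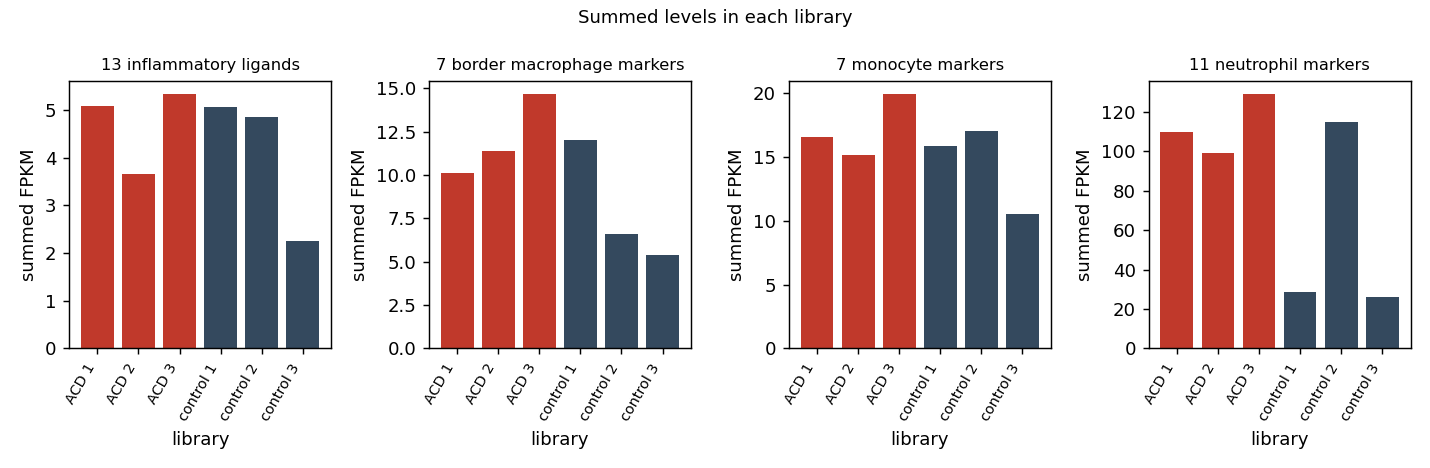
Summed FPKM per library of the 13 inflammatory ligands, 7 border macrophage markers, 7 monocyte markers and 11 neutrophil markers, with ACD libraries in red left of control libraries in blue. Control 3 has the lowest bar in every panel, at 2.25 FPKM for the ligands, and the ligand sums of ACD (3.66 to 5.34) and control (2.25 to 5.06) overlap. The marker lists shown are among those lowest in control 3, and other lists were lowest in other libraries. For neutrophil markers control 1 was nearly as low (28.7 FPKM, beside 25.99 in control 3).

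Of 17 chemokine ligands outside the 32 genes, 9 were detected and none passed with limma, at a median fold change of -0.01. Ccl9, a mouse ligand of Ccr1 made by myeloid cells, measured 1.89, 2.06 and 1.99 FPKM in ACD 1 to 3, against 1.36, 1.34 and 0.663 FPKM in controls. Its groups did not overlap, and its fold change of 0.83 had an adjusted p of 0.12 with limma and 0.0373 with voom (0.0373 to 0.277 over all alternatives); it was 0.52 without control 3. Of 15 other receptors 7 were detected and none passed, at a median fold change of 0.05. Cx3cr1, the receptor of Cx3cl1 and a microglial marker, measured 8.77, 9.39 and 8.93 FPKM in ACD and 7.70, 8.48 and 8.13 FPKM in controls, without overlap as deposited (fold change 0.15, adjusted p = 0.241). After TPM scaling the fold change of Cx3cr1 was 0.058 (adjusted p = 0.682 with limma). The value of Ackr1, 20.2 ± 0.656 FPKM in ACD and 20.1 ± 0.663 in controls, is uncertain, because 25.7% of its exon bases lie in exons of Cadm3 on the same strand.

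Of 29 detected genes of chemokine receptor signalling 1 rose (1.81% of all genes did) and none fell. With the length and GC trend taken out 6 of the 29 passed, where 6.56% of all genes did. Their median fold change was 0.16 (0.06 after TPM scaling). The gene that rose was Rhoa, a small GTPase of cell contraction and migration, which measured 25.6, 24.5 and 23.3 FPKM in ACD 1 to 3, against 18.8, 19.9 and 19.3 FPKM in controls (fold change 0.34, SE 0.064, adjusted p = 0.0362). It no longer passed when any 1 library was left out (adjusted p 0.0565 to 0.128), nor after TPM scaling (0.0751) or without a filter on low values (0.0584). Of 8 detected proteases that trim or shed chemokines none passed, and 2 did with the length and GC trend taken out, beside 6.56% of all genes. Ctsg, cathepsin G of neutrophils, measured 0.279, 0.478 and 0.635 FPKM in ACD and 0, 0.0521 and 0.112 FPKM in controls (fold change 1.88, adjusted p = 0.0553 with limma and 0.0288 with voom), on 5, 10 and 12 reads in ACD and 0, 1 and 2 reads in controls.

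Of 12 detected cytokines and receptors that induce chemokines, 1 rose and none fell, beside 1.81% and 2.53% of all genes. With voom 2 passed (7.96% of all genes did), and with the length and GC trend taken out 2 passed (6.56% of all genes did). Il6ra, the receptor of interleukin 6, measured 1.601, 1.51 and 1.52 FPKM in ACD 1 to 3, against 0.793, 0.853 and 0.934 FPKM in controls (fold change 0.78, SE 0.13, adjusted p = 0.0274). Its adjusted p was 0.0457 without control 3 and 0.0591 to 0.103 without any other single library. Ifng, Ifnb1 and Il17a were at 0 in all libraries, and Tnf, Il6 and Il1b were below the detection limit. Of the 10 microglial markers, all detected, 8 had a fold change above 0 and 2 below. Olfml3 (fold change 0.57, adjusted p = 0.0384 with limma) and Tmem119 (0.53, adjusted p = 0.0394) passed, where 1.81% of all genes passed as higher in ACD. None passed after TPM scaling, and over the alternatives the adjusted p of Olfml3 reached 0.130 and that of Tmem119 0.131. The summed level of the 10 was 118 to 126 FPKM in ACD and 94.4 to 115 in controls. Their part in Il6ra, Ccl9 and Cx3cr1 was not tested.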

How the data were processed

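Cervical cord RNA from 3 ACD and 3 control mice was sequenced, and each library was taken as 1 mouse because the labels call the samples biological replicates; the group came from the sample descriptions. The authors deposited FPKM per Ensembl gene. Per the submitters' processing notes, the genome build was mm10 and the tools were DESeq2 1.16.1, featureCounts 1.5.0-p3 and HISAT2 2.0.5, with no role given. The strand setting, the annotation and the library kit are not stated in the sources used here. Exon lengths, coordinates and overlaps came from GENCODE M21 (54495 of 54532 identifiers found). Ccl19 and Ccl21a have a further identifier, at 0 in all libraries.

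FPKM times exon length times a factor for each library came out as whole reads (tolerance 0.05) for 96.9% of values above 0; these reads give the depth and were tested with voom. Genes averaging 0.1 FPKM or more were fitted with limma 3.58.1 in R 4.3.3 (eBayes with trend and robust settings, pseudocount 0.1) and adjusted by Benjamini-Hochberg over all genes. The limma fit was checked on simulated data, in which only large changes were put in, and not in the genes with the fewest reads. Recovery of small changes, or of changes in genes with the fewest reads, was not checked. With 3 against 3 an exact permutation test of 1 gene cannot go below 0.1 and was not used. All members are named; of other lists, up to 4 passing genes or the one with the smallest p were to be named, and Ackr1, Ccr10, Ccl21b, Il4 and the undetected genes were added after their values were seen. Members and lists were chosen with earlier results of these data known. Days of dissection and preparation are not in the labels, so handling and group cannot be told apart.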

Additional observations from a re-analysis of the deposited data

How the results depend on the processing

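Members passing numbered 0 in each direction under all 16 alternatives: another pseudocount (0.01 or 1), no filter or a mean of at least 1 FPKM (which left 8 members), TPM scaling, a trend on length and GC content removed, voom, eBayes without robust settings, the replicate block, each of the 6 libraries left out, and a filter of 10 mean reads chosen after seeing the data. Of 329 member values, 313 kept direction and side of the threshold and 16 turned sign. Sign turned for Ccl17 (0.12) with the length and GC trend removed, and for Ccl27a (-0.041) and Cx3cl1 (-0.034) with TPM scaling. With 1 library left out, the lowest and highest fold changes were -0.14 and 0.02 for Ackr3, -0.80 and 0.28 for Ccl11, -0.20 and 0.60 for Ccl12, -0.26 and 0.27 for Ccl17, -0.28 and 0.058 for Ccl22, -0.005 and 0.13 for Ccl27a, -0.13 and 0.92 for Ccl4, -0.21 and 0.41 for Ccr2, -0.061 and 0.18 for Cx3cl1, and -0.23 and 0.43 for Cxcl16. The other 12 kept their sign, with ranges of 0.08 to 1.10 for Ccl3, -0.60 to -0.05 for Cxcr4, -0.73 to -0.19 for Ccl2, 0.25 to 0.88 for Ccr1, -0.51 to -0.22 for Cxcl5, 0.68 to 1.51 for Cxcl1, 0.23 to 1.48 for Ccl5, 0.30 to 1.42 for Ccl7 and -0.98 to -0.44 for Cxcl12 among them. Over all genes, 927 passed in the fit reported, 556 without a filter, 1401 with the length and GC trend removed, 1634 with voom, and 180 to 627 with 1 library left out. Replicate numbers did not pair the samples: deviations of same-numbered libraries correlated at -0.03, 0.01 and 0.003, and with the replicate block 181 genes passed, without Rhoa (adjusted p = 0.0976 with limma) and Il6ra (0.093). The cause of these shifts was not tested. Depth limits the low genes, 13 of 22 detected members having under 20 mean reads.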

Other observations

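Il4, a type 2 cytokine usually restricted to immune cells, was listed at 13.1, 12.5 and 12.8 FPKM in ACD 1 to 3 and 12.1, 10.3 and 11.2 FPKM in controls, on 234 to 310 reads per library, while the T cell markers Cd3e, Cd3d, Cd3g and Cd4 were below the detection limit. No exon of another gene overlaps it in the annotation used. Its fold change of 0.20 had an adjusted p of 0.194 with limma.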
